A study of Mus musculus with 12 samples.

Results

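The 10 genes described here encode the 2 interleukin-1 agonists (*Il1a* and *Il1b*), the receptor antagonist (*Il1rn*), 3 chains of the receptor family (*Il1r1*, *Il1rap* and *Il1rl1*) and the 4 IRAK kinases (*Irak1*, *Irak2*, *Irak3* and *Irak4*). They were taken by symbol from a table of 46731 genes, and all 10 were found. The set was chosen with earlier results of these data known. RNA had been sequenced from ATDC5 cells, a mouse line of teratocarcinoma origin that serves as a model of cartilage-forming cells, to see how loss of the RNA helicase DDX5 alters the response to inflammatory cytokines. The 12 libraries fall into 4 groups of 3. The shRNA-NC cells carry a control hairpin and their genotype is given as wildtype, and the shRNA-Ddx5 cells carry a hairpin against *Ddx5*. Each of these was sampled at 6 h either with No stimulation (called medium here) or with IL-1β+TNF-α (called cytokines here). Both lines are lentivirally transduced cells selected with puromycin, and the methods name a single construct against *Ddx5*, so an effect of the hairpin cannot be told apart from an effect of the line it made. The labels number the replicates without saying what separates them, the paper speaks of independent experiments, and the p-values given here measure the spread between these libraries.

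IL-1α and IL-1β both bind the receptor IL-1R1, which then takes up the accessory chain IL-1RAcP, the product of *Il1rap*, to form a signalling complex. The cytoplasmic parts of the complex gather the adaptor MyD88 and the kinase IRAK4, which phosphorylates IRAK1 and IRAK2, and the chain ends in NF-κB and MAP kinase activity and in the transcription of chemokines, proteases and feedback inhibitors. IL-1Ra, the product of *Il1rn*, occupies IL-1R1 without signalling, IRAK3 (IRAK-M) restrains the pathway, and the *Il1rl1* product ST2 is the receptor for the related cytokine IL-33 and is also made as a soluble decoy. In cartilage, IL-1 is known for driving chondrocytes to degrade their matrix and to lower collagen II and SOX9. The IL-1β given to these cells was added as protein, so the *Il1b* values below are the cells' own RNA.

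The 10 genes parted into a group that was nearly silent and a group that was always on. *Il1a*, *Il1b*, *Il1rn* and *Irak3* lay at or below 11 fragments in each library of 3 of the 4 groups, whereas *Irak1*, *Irak2*, *Irak4*, *Il1r1*, *Il1rap* and *Il1rl1* had at least 0.601 FPKM in every library. With cytokines, shRNA-Ddx5 cells differed from shRNA-NC cells mainly in 3 of them, with more *Il1a* and *Il1rn* RNA and less *Il1rl1* RNA, and by less in *Il1rap* and *Irak1*.

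The stretches of DNA upstream of those 3 genes are shown because *Il1a* and *Il1rn* were high in the same 3 libraries while *Il1rl1* was lower there than in the control cells. The RefSeq promoter table (build GRCm38.p6) held 16 windows for the 10 genes, each with 250 bases before and 50 after an annotated start, and each window was found exactly once on its chromosome in GRCm39. Both strands were searched for the AP-1 motif TGANTCA, for the NF-κB consensus and for TATAAA, which overlap each other nowhere in the printed bases. Below are the 250 bases before the start, 5′ to 3′ on the strand of the gene, with AP-1 matches in capitals. Of the 3 starts listed for *Il1rn* the first is printed, at which the deposited coordinates of the gene begin, and the windows of the other two hold no AP-1 match.
*Il1a*, minus strand, chr2:129151893-129152142: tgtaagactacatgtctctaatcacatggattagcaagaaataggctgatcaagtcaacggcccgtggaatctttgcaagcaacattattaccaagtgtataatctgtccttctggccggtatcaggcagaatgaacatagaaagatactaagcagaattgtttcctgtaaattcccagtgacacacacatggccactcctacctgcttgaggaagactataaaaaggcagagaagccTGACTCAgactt
*Il1rn* start 1, plus strand, chr2:24226622-24226871: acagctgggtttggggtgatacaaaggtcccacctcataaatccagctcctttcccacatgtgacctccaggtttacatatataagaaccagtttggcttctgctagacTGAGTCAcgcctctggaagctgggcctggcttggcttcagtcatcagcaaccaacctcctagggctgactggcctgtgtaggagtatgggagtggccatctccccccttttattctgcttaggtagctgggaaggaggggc
*Il1rl1* start 1, plus strand, chr1:40468480-40468729: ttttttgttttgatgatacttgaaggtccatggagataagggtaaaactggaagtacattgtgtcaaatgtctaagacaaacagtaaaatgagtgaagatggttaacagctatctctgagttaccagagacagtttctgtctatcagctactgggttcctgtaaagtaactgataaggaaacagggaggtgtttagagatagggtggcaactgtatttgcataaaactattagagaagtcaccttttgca
*Il1rl1* start 2, plus strand, chr1:40478539-40478788: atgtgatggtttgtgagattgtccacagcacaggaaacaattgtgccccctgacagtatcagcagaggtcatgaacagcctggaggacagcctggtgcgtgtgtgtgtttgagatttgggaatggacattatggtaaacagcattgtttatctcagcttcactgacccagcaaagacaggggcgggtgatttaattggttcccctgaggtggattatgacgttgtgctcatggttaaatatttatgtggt

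AP-1 matches were present in 2 of the 16 windows, those of *Il1a* and of the first start of *Il1rn*, against 7.81% of all 32851 windows of the table. The NF-κB consensus matched 1 of the 16, a window of *Il1r1*, against 4.51% of all windows. A TATAAA match lay in the windows of *Il1a* and *Il1b* and in one of *Il1rn*, against 13.6% of all windows. Those of *Il1a* and *Il1b* began at -32 and -31 from the start on the strand of the gene, and that of *Il1rn* at 14 on the other strand. Neither *Il1rl1* window held any of the 3 motifs, and the deposited coordinates begin *Il1rl1* upstream of both.

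The deposited unit is FPKM, fragments scaled by gene length and by library, and the fragments themselves could be read back from it. Library totals on genes ran from 14119199 to 19276520 fragments, and the scale of the FPKM was 0.957 to 1.08 times these totals. Tests used limma on log2(FPKM + 1), which understates the change of genes near or under 1 FPKM, for the 12368 genes that reached 1 FPKM in 3 or more libraries, with Benjamini-Hochberg adjustment over all of them and a threshold of 0.05. Of the 10 genes, 7 entered, and *Il1a*, *Il1b* and *Irak3* did not. *Ddx5* stood at 294 to 337 FPKM in the 6 shRNA-NC libraries and at 90.7 to 118 FPKM in the 6 shRNA-Ddx5 libraries, which matches the hairpin that each label gives. Of 11 markers of the chondrogenic line 5 passed 1 FPKM in any library, among them *Sox9* and *Col2a1*, while the aggrecan gene *Acan* had at most 4 fragments in any library. Their summed FPKM fell from 41.7–48.1 to 14.7–21.2 with cytokines in shRNA-NC cells, and from 32.4–35.3 to 11.9–12.1 in shRNA-Ddx5 cells. The sum hides opposite changes. Of the 5 tested, the knockdown in medium raised 1 and lowered 2, beside 25.3% and 21.7% of all genes. Mean *Col2a1* was 12.4 FPKM in shRNA-NC and 0.899 in shRNA-Ddx5 cells in medium, and mean *Col11a1* was 0.897 and 4.78. *Col2a1* was under 1 FPKM in every shRNA-Ddx5 library. Among 13 markers of macrophages and other leukocytes, which are the usual makers of IL-1, 7 were at or under 3 fragments in every library and *Ptprc*, *Tyrobp*, *Cd3e* and *Kit* had none at all. The gene-level table does not separate the membrane and soluble products of *Il1r1*, *Il1rap*, *Il1rl1* or *Il1rn*, and in bulk RNA more RNA per cell and more expressing cells cannot be told apart.

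Across all genes tested, the cytokines changed 33.8% in shRNA-NC cells, 18.6% upward, against 2 of the 7 IL-1 genes, both upward (*Il1r1* and *Il1rl1*). In shRNA-Ddx5 cells the cytokines changed 27% of all genes, 13.5% upward, against 3 of the 7, all upward (*Il1rn*, *Il1r1* and *Il1rl1*). The knockdown in medium changed 47% of all genes, 25.3% upward and 21.7% downward, against 1 of the 7 upward (*Il1r1*) and 3 downward (*Il1rl1*, *Irak2* and *Irak4*). With cytokines it changed 45.6%, 23.5% upward and 22.1% downward, against 2 of the 7 upward (*Il1rn* and *Il1rap*) and 2 downward (*Il1rl1* and *Irak1*). The knockdown effect differed between the media in 8.21% of all genes (3.46% upward and 4.75% downward) and in 2 of the 7, *Il1rn* upward and *Il1rl1* downward. *Il1rn* entered the test only because its 3 shRNA-Ddx5 libraries with cytokines pass 1 FPKM, so its calls in these counts were bound to be made. Without it the counts were 2 of 6 for the cytokines in shRNA-Ddx5 cells, 1 upward of 6 for the knockdown with cytokines and 1 of 6 for the difference between the media. The first 4 of the shares are near the background and all rest on a few genes, so what follows concerns the genes singly. Groups that did not overlap were more common. Among all genes tested, the cytokine libraries lay wholly above those in medium for 23.7% and wholly below for 22% in shRNA-NC cells, and for 23.3% and 24% in shRNA-Ddx5 cells, against 3 and 3 of the 7 and 4 and 1 of the 7. The shRNA-Ddx5 libraries lay wholly above or below those of shRNA-NC for 28.7% and 24.8% of all genes in medium and for 31.7% and 29.9% with cytokines, against 2 and 4 of the 7 and 3 and 3 of the 7. *Il1rn* is among those wholly above in each of the 4 comparisons. Of the genes called under the cytokines, 55.1% rose in shRNA-NC cells, and 1671 rose and 1673 fell in shRNA-Ddx5 cells, and the shares that rose were 43.4% and 39.0% after quantile normalization or 42.2% in both lines after scaling to the sum of fragments. For the knockdown in medium it was 53.8%, and 42.5% after scaling to the sum of fragments. None of the 7 genes changed direction under these scalings where its difference was called.

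**Figure D1:**
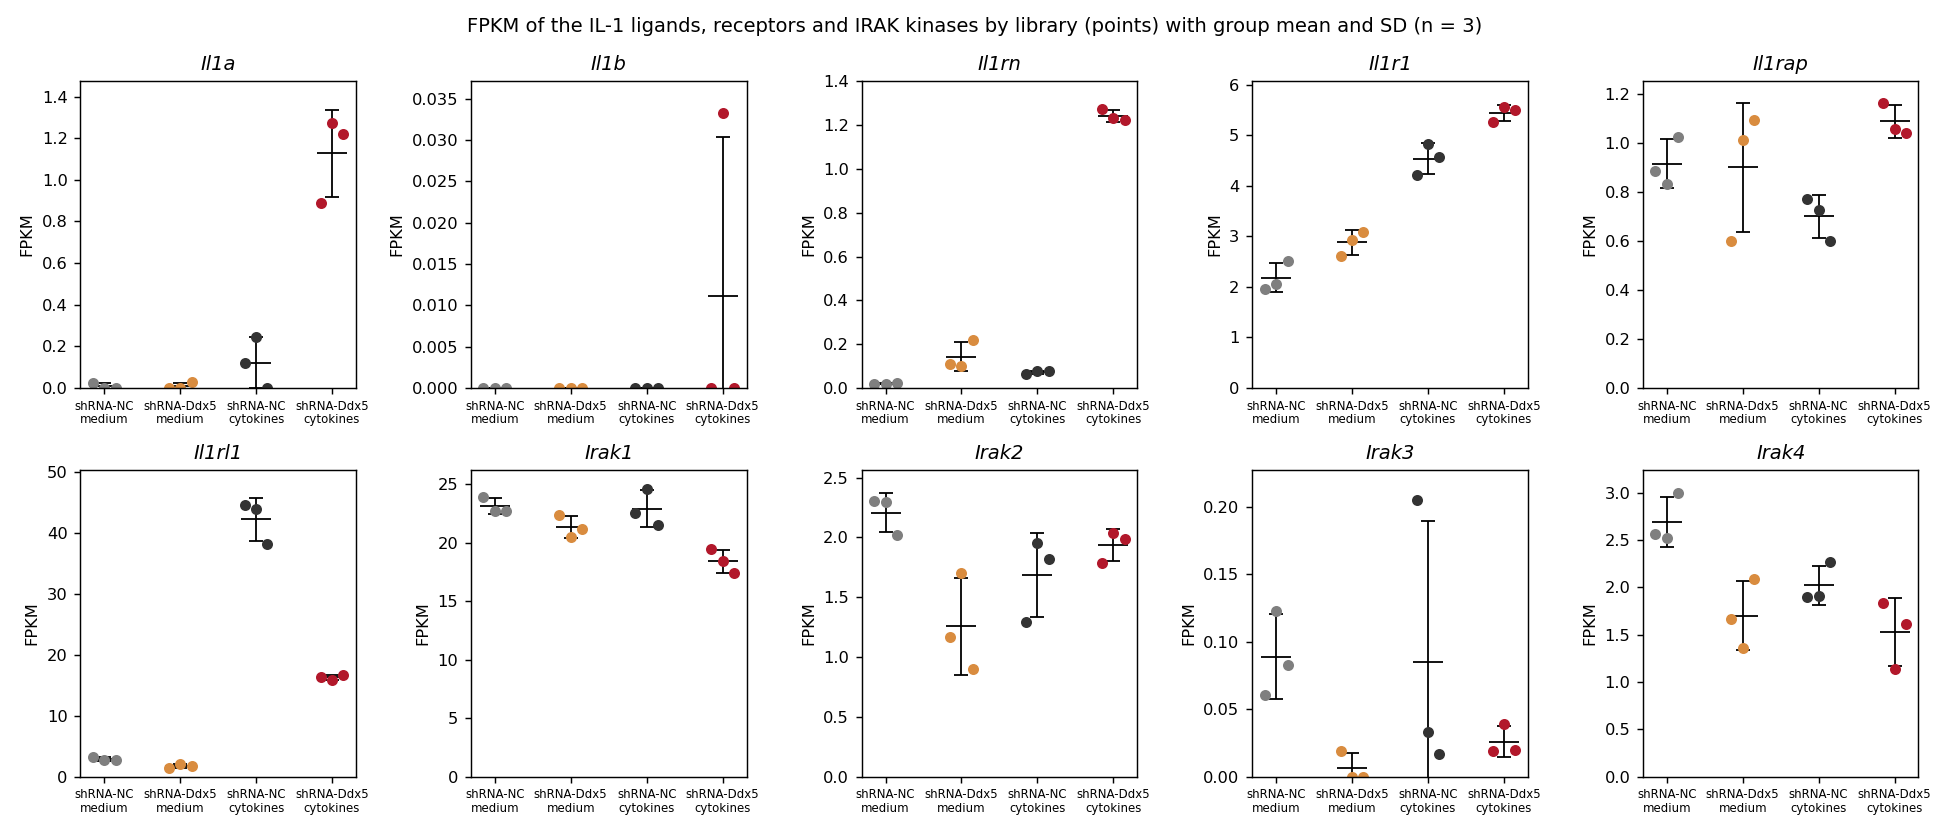
FPKM of the 10 genes (vertical axes, linear, each starting at 0) in the 4 groups; points are the 3 libraries, and horizontal lines and bars the group mean and SD, with lower bars cut at 0. *Il1rl1* climbed to 38.2–44.6 FPKM in shRNA-NC cells with cytokines and to 15.8–16.7 in shRNA-Ddx5 cells, and *Il1a* and *Il1rn* are highest in the last group.

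Of the agonists, *Il1a* RNA exceeded 9 fragments only in shRNA-Ddx5 cells given cytokines. *Il1a* (gene 16175, minus strand of chromosome 2, 129141530 to 129151892, GRCm39) encodes IL-1α, an agonist that can act from inside the cell, from its membrane or after release on injury. Replicates 1, 2 and 3 held 29, 40 and 38 fragments of it in shRNA-Ddx5 cells with cytokines, against 4, 9 and 0 in shRNA-NC cells with cytokines. In medium there was 1 fragment in replicate 1 of shRNA-NC cells and 1 in replicate 3 of shRNA-Ddx5 cells, and none in the other 4 libraries. The ranges of the 2 cytokine groups did not overlap. The mean FPKM with cytokines was 0.122 ± 0.122 (SD, n = 3) for the control hairpin and 1.13 ± 0.209 (SD, n = 3) for the hairpin against *Ddx5*. The summed fragments, scaled by depth, were 9.26 times those of the control cells (95% counting interval 5.19 to 17.96, an interval that covers counting error only). Against shRNA-Ddx5 cells in medium, with a single fragment, the ratio was 117 (counting interval 20.5 to 4649). *Il1a* was tested in a fit added after the data were seen, which it entered only through the 3 libraries in which it is high, so a difference of that group was bound to be found. In this fit, voom weights in limma on genes with at least 10 fragments in at least 3 libraries, the knockdown difference with cytokines was 3.87 log2 units (standard error 0.71, adjusted p = 0.00055). The cytokine difference was 5.75 in shRNA-Ddx5 cells (standard error 0.84, adjusted p = 0.00013) and 1.96 in shRNA-NC cells (standard error 1.03, adjusted p = 0.16). Whether the knockdown effect differed between the media did not pass the test there (difference 3.80, adjusted p = 0.11), although it did with no filter on low values (0.92 on the log2(FPKM + 1) scale, adjusted p = 0.0027). A noncoding gene on the other strand, *Gm14023*, overlaps *Il1a* and had at most 5 fragments in any library.

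*Il1b*, the gene of the cytokine that had been added to the medium, was not induced to a measurable level. *Il1b* (gene 16176, minus strand of chromosome 2, 129206490 to 129213059) lies 54597 bases from *Il1a*. It had 1 fragment, in replicate 2 of shRNA-Ddx5 cells with cytokines, and 0 in the other 11 libraries. A count of 0 allows up to 3 fragments per library, so a level below that was not detectable at this depth.

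*Il1rn*, the antagonist, behaved like *Il1a* but was also counted above the control in medium. *Il1rn* (gene 16181, plus strand of chromosome 2, 24226872 to 24241503) had 1 fragment in each shRNA-NC library in medium, and 5, 5 and 11 in replicates 1, 2 and 3 of shRNA-Ddx5 cells. With cytokines there were 3, 4 and 4 fragments in shRNA-NC and 59, 55 and 54 in shRNA-Ddx5 cells. The shRNA-Ddx5 libraries lay above the shRNA-NC libraries in both media without overlap. With cytokines the mean FPKM was 0.0720 ± 0.0069 (SD, n = 3) in the control line and 1.24 ± 0.026 (SD, n = 3) in shRNA-Ddx5 cells. The depth-scaled ratio of fragments was 17.2 with cytokines (counting interval 9.36 to 35.1) and 7.46 in medium (2.23 to 39.0, from 21 against 3 fragments).

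On the log2(FPKM + 1) scale the knockdown raised *Il1rn* with cytokines by 1.06 (standard error 0.09, adjusted p = 4.0e-06), and the cytokines raised it by 0.98 in shRNA-Ddx5 cells (adjusted p = 5.8e-06). In shRNA-NC cells the cytokine difference was 0.07 (95% interval -0.11 to 0.26, adjusted p = 0.54). *Il1rn* passed the filter on low values only through the 3 libraries in which it is high, so a difference of that group was bound to be found once it was tested. Without any 1 of the shRNA-Ddx5 cytokine libraries it was not tested at all. In medium the knockdown difference was 0.16 (95% interval -0.02 to 0.35, adjusted p = 0.14), but it passed with a pseudocount of 0.1 (0.98, adjusted p = 0.049), with no filter (0.16, adjusted p = 0.015) and with voom weights (2.33, adjusted p = 0.0029). The knockdown effects in the 2 media differed by 0.90 (standard error 0.12, adjusted p = 0.0010) on this scale. They did not differ past the threshold with a pseudocount of 0.1 (adjusted p = 0.0503) or with voom weights (1.61, adjusted p = 0.16), scales closer to fold change.

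The relatives of the IL-1 ligands were read from a list of 8 genes, of which 3 reached the test. *Il1f6*, which encodes IL-36α, had 27, 30 and 16 fragments in shRNA-Ddx5 cells with cytokines, against 3, 7 and 0 in shRNA-NC cells and none in the 6 libraries in medium. Its knockdown difference with cytokines was 1.16 (standard error 0.15, adjusted p = 0.00012) and its cytokine difference in shRNA-Ddx5 cells 1.42 (adjusted p = 3.3e-05), and it too entered the test only through its high group. Without any 1 replicate of that group it was not tested. *Il1f9*, which encodes IL-36γ and was picked out after its values were seen, had 24, 25 and 29 fragments in that group, 3, 8 and 1 in shRNA-NC cells with cytokines, and at most 3 in any library in medium. Both lie in the block of 198320 bases on chromosome 2 that ends with *Il1rn*. *Il18* and its binding protein *Il18bp* had 1.42 to 2.72 and 0.910 to 1.86 FPKM and passed no comparison, and 1 of the 3 genes rose with cytokines in shRNA-Ddx5 cells and none in shRNA-NC cells. The list's median differences were -0.03 and 0.24 for the cytokines in shRNA-NC and shRNA-Ddx5 cells, beside 0.02 and 0.00 over all genes.

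**Figure D2:**
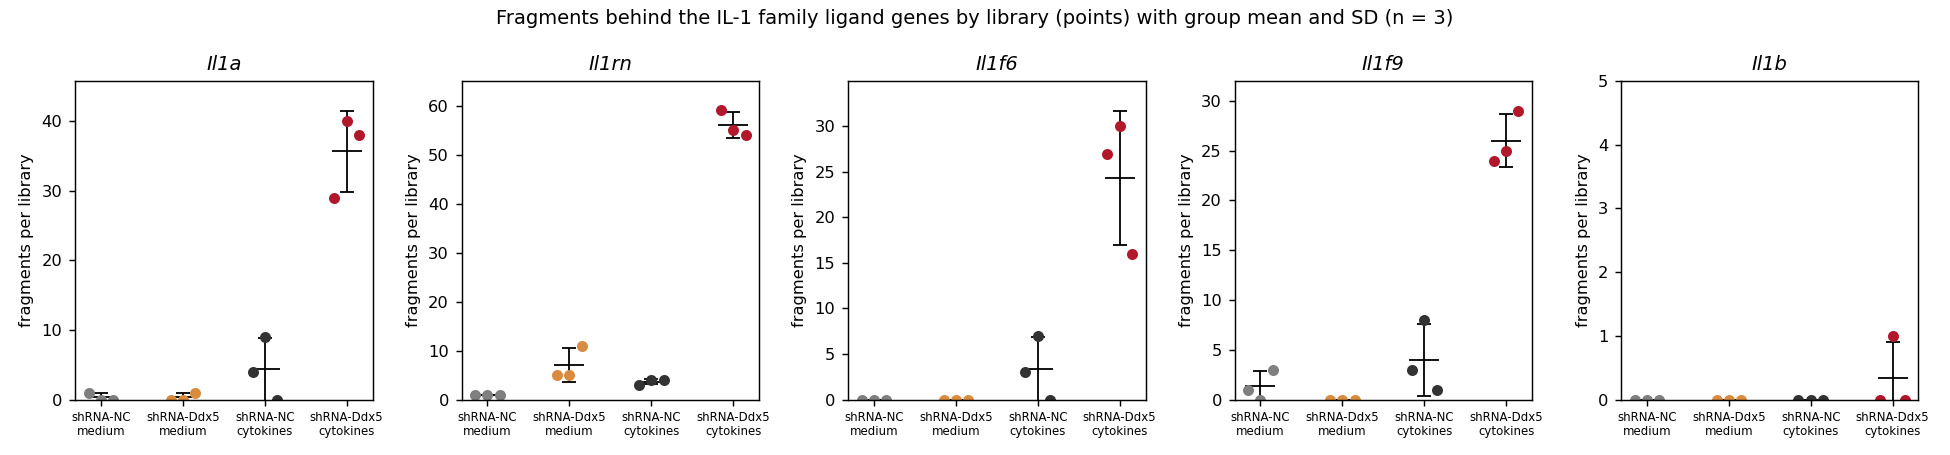
Fragments per library (vertical axes, linear) of *Il1a*, *Il1rn*, *Il1f6*, *Il1f9* and *Il1b* in the 4 groups; points are libraries, and lines and bars the mean and SD of 3, with lower bars cut at 0. The first 4 genes reach 16 to 59 fragments in each library of shRNA-Ddx5 cells with cytokines and no more than 11 elsewhere, and *Il1b* has 1 fragment in all.

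In shRNA-NC cells with cytokines, replicate 2 was the highest of the 3 for *Il1a* (9 fragments), *Il1f6* (7) and *Il1f9* (8). The same library was highest for *Saa3*, an acute-phase gene of the IL-1 response, with 2767 fragments against 322 and 789, and for *Lcn2*, with 325 against 69 and 62. All of these stayed below the 3 shRNA-Ddx5 libraries with cytokines, where *Saa3* had 15677 to 18429 fragments. The summed FPKM of the 13 leukocyte markers was 5.46–5.67 and 8.12–10.9 in shRNA-NC cells in medium and with cytokines, and 6.41–7.85 and 11.5–12.6 in shRNA-Ddx5 cells. *Cd14*, which other cells express too, accounted for most of this sum, and the pan-leukocyte gene *Ptprc* was at 0 in every library. Of the macrophage genes of this list, *Lyz2* and *Csf1r* were higher in the knockdown cells, as *Il1a* and *Il1rn* were with cytokines. *Lyz2* had 3 fragments over the shRNA-NC and 52 over the shRNA-Ddx5 libraries in medium, and 3 and 29 with cytokines (depth-scaled ratio 10.9, counting interval 3.37 to 55.8). *Csf1r* had 21 and 77 in medium, and 7 and 50 with cytokines (ratio 8.04, counting interval 3.63 to 21.0). Within the knockdown cells both had fewer summed fragments with cytokines than in medium, whereas *Il1a* and *Il1rn* had more. The media overlapped for *Lyz2* (0.735 to 1.21 FPKM in medium, 0.300 to 0.892 with cytokines) and for *Csf1r* (0.315 to 0.486 and 0.211 to 0.343). *Cd68* and *Fcgr3* were not higher in the knockdown cells. *Cd68* had mean FPKM of 1.42 in shRNA-NC and 1.10 in shRNA-Ddx5 cells in medium, and 1.76 and 1.40 with cytokines. *Fcgr3* had 15 and 11 fragments in medium, and 11 and 8 with cytokines. *Adgre1* and *Itgam* had at most 1 fragment in any library. The part of these macrophage genes in the *Il1a* and *Il1rn* results was not tested.

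Among the receptors, *Il1rl1* had the largest rise with cytokines, and it was smaller in shRNA-Ddx5 cells. On the log2(FPKM + 1) scale this was the largest change of the 7 genes tested. By the depth-scaled ratio of fragments the knockdown difference of *Il1rn* with cytokines was larger (17.2, against 14.4 for the *Il1rl1* rise in shRNA-NC cells). *Il1rl1* (gene 17082, plus strand of chromosome 1, 40444025 to 40504578) encodes ST2. In medium its FPKM was 3.27, 2.75 and 2.73 in replicates 1, 2 and 3 of shRNA-NC cells and 1.43, 1.99 and 1.73 in shRNA-Ddx5 cells. With cytokines it was 44.6, 43.9 and 38.2 in shRNA-NC cells and 16.4, 15.8 and 16.7 in shRNA-Ddx5 cells. No 2 of the 4 groups overlapped. The cytokines thus multiplied the mean FPKM 14.5-fold in shRNA-NC cells, from 2.92 ± 0.302 to 42.3 ± 3.52 (SD, n = 3 each), and 9.50-fold in shRNA-Ddx5 cells, from 1.71 ± 0.282 to 16.3 ± 0.462 (SD, n = 3 each). On the log2 scale the rises were 3.46 (adjusted p = 5.8e-10) and 2.68 (adjusted p = 5.4e-09), each with a standard error of 0.10.

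The knockdown left *Il1rl1* at 58.8% of the control mean in medium and at 38.5% with cytokines. The log2 differences were -0.53 (standard error 0.10, adjusted p = 0.0010) and -1.32 (standard error 0.10, adjusted p = 2.5e-06). They passed in each of the 12 fits that left out 1 library, with ranges of -0.60 to -0.45 and -1.39 to -1.28. The 2 differences differed by -0.79 (standard error 0.14, adjusted p = 0.0053), and the difference passed without any 1 library (adjusted p from 0.0037 to 0.021). It missed the threshold with a pseudocount of 0.1 (-0.63, adjusted p = 0.0545) and with voom weights (-0.60, adjusted p = 0.053). *Il1rl1* RNA was thus lower in shRNA-Ddx5 cells under both media by each method run, while the larger proportional loss with cytokines depended on the scale.

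*Il1r1*, the receptor for IL-1 itself, rose in both lines. *Il1r1* (gene 16177, plus strand of chromosome 1, 40261651 to 40355361) had 1.97, 2.06 and 2.50 FPKM in shRNA-NC cells in medium and 4.21, 4.83 and 4.57 with cytokines. In shRNA-Ddx5 cells it had 2.62, 2.93 and 3.09 FPKM in medium and 5.26, 5.56 and 5.51 with cytokines. The 4 groups did not overlap and were ordered with shRNA-Ddx5 above shRNA-NC in each medium. The cytokine rise was 0.80 (standard error 0.09, adjusted p = 5.0e-05) in shRNA-NC and 0.73 (adjusted p = 8.4e-05) in shRNA-Ddx5 cells, 2.08-fold and 1.89-fold of the mean FPKM, and the 2 rises differed by -0.07 (95% interval -0.34 to 0.21, adjusted p = 0.79).

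The knockdown raised *Il1r1* in medium by 0.29 (95% interval 0.09 to 0.48, adjusted p = 0.019), and its difference with cytokines was 0.22 (95% interval 0.03 to 0.41, adjusted p = 0.063). The call in medium was lost without replicate 1 or 2 of shRNA-NC cells in medium (adjusted p = 0.073 and 0.067), without replicate 3 of shRNA-Ddx5 cells in medium (0.077), after scaling to the sum of fragments (0.076) and with only the libraries of the contrast (0.069). That with cytokines was gained after quantile normalization (adjusted p = 0.023) and without replicate 3 of shRNA-NC cells in medium (0.040).

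*Il1rap*, the accessory chain shared by IL-1R1 and ST2, was the lowest of the 6 genes that were always on. *Il1rap* (gene 16180, plus strand of chromosome 16, 26400259 to 26548878) had 0.887, 0.834 and 1.03 FPKM in shRNA-NC and 0.601, 1.01 and 1.09 in shRNA-Ddx5 cells in medium. With cytokines it had 0.772, 0.728 and 0.602 FPKM in shRNA-NC and 1.16, 1.06 and 1.04 in shRNA-Ddx5 cells. The lines overlapped in medium and not with cytokines. The cytokine differences were -0.17 (adjusted p = 0.25) and 0.14 (adjusted p = 0.37), and the knockdown difference in medium was -0.02 (95% interval -0.26 to 0.22, adjusted p = 0.91). With cytokines the knockdown difference was 0.30 (standard error 0.11, adjusted p = 0.046). Of the 12 fits without 1 library the call held in 3, those without replicate 1 or 3 of shRNA-Ddx5 cells or replicate 3 of shRNA-NC cells in medium. It was lost in the other 9, and with a pseudocount of 0.1, no filter, quantile normalization, scaling to the sum of fragments or a replicate block, with adjusted p from 0.05004 to 0.13.

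Of 7 further receptors of the family, *Il18rap* alone reached the test. *Il18rap*, the accessory chain of the IL-18 receptor, had 0.502 to 0.586 FPKM in shRNA-NC cells in medium and 2.49 to 3.98 with cytokines. In shRNA-Ddx5 cells it had 0.584 to 0.909 FPKM in medium and 1.21 to 1.78 with cytokines. It rose with cytokines by 1.48 in shRNA-NC cells (adjusted p = 1.6e-05) and by 0.52 in shRNA-Ddx5 cells (adjusted p = 0.018), and the knockdown effects in the 2 media differed by -0.96 (adjusted p = 0.013). *Il18rap* reached 1 FPKM only in libraries with cytokines. It entered the test through them, so a rise with cytokines was favoured in advance. Its cytokine rise in shRNA-Ddx5 cells was lost without replicate 1 of those cells in medium and without replicate 2 or 3 of those with cytokines. It stands in the same block as *Il1r1* and *Il1rl1*, 466996 bases of chromosome 1, and shared the pattern of *Il1rl1*, a smaller rise in the knockdown cells. *Il18r1*, which begins 133 bases beyond the end of *Il1rl1*, had at most 11 fragments in any library. Over the shRNA-NC libraries it had 1 fragment in medium and 18 with cytokines (depth-scaled ratio 18.6, counting interval 2.93 to 774). With cytokines shRNA-Ddx5 cells had 5 (ratio to shRNA-NC 0.31, counting interval 0.091 to 0.87). The libraries of the lines overlapped there, with 2 to 11 fragments in shRNA-NC and 0 to 4 in shRNA-Ddx5 cells, and a single library held 11 of the 18. In this block, then, a strongly induced gene stood next to one with few fragments, whose summed counts went in the same directions in these comparisons.

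Of the kinases, *Irak1* was the most abundant, and the only one called in the knockdown with cytokines. *Irak1* (gene 16179, minus strand of chromosome X, 73057520 to 73067527) had 22.7 to 23.9 FPKM in shRNA-NC and 20.5 to 22.4 in shRNA-Ddx5 cells in medium. With cytokines it had 22.6, 24.6 and 21.6 FPKM in shRNA-NC and 19.4, 18.4 and 17.5 in shRNA-Ddx5 cells, with no overlap between the lines in either medium. The knockdown lowered it with cytokines by a log2 difference of -0.30 (standard error 0.07, adjusted p = 0.0062), to 80.4% of the control mean, and this passed in each of the 12 fits without 1 library. In medium the difference was -0.11 (95% interval -0.27 to 0.05, adjusted p = 0.23), and it passed after quantile normalization (-0.21, adjusted p = 0.028) and after scaling to the sum of fragments (-0.21, adjusted p = 0.039). The cytokine differences were -0.01 (95% interval -0.17 to 0.15, adjusted p = 0.90) in shRNA-NC and -0.20 (95% interval -0.36 to -0.04, adjusted p = 0.063) in shRNA-Ddx5 cells, and the latter passed under the same scalings (adjusted p = 0.021 and 0.032).

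*Irak4*, the kinase that acts first, was lower in the knockdown cells in medium. *Irak4* (gene 266632, plus strand of chromosome 15, 94441495 to 94466198) had 2.56, 2.52 and 2.99 FPKM in shRNA-NC and 1.66, 1.36 and 2.08 in shRNA-Ddx5 cells in medium. With cytokines it had 1.89, 1.90 and 2.26 FPKM in shRNA-NC and 1.84, 1.13 and 1.62 in shRNA-Ddx5 cells. The knockdown difference was -0.46 in medium (standard error 0.13, adjusted p = 0.013) and -0.26 with cytokines (95% interval -0.55 to 0.02, adjusted p = 0.12), and the 2 did not differ past the threshold (0.19, adjusted p = 0.57). Without replicate 2 of shRNA-Ddx5 cells in medium, the lowest of the 3, the difference in medium was -0.36 (adjusted p = 0.0501).

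*Irak2*, which sustains signalling once IRAK1 has been used up, was also lower in the knockdown cells in medium. *Irak2* (gene 108960, plus strand of chromosome 6, 113615428 to 113671987) had 2.30, 2.30 and 2.02 FPKM in shRNA-NC and 1.17, 1.70 and 0.900 in shRNA-Ddx5 cells in medium. With cytokines it had 1.29, 1.95 and 1.82 FPKM in shRNA-NC and 1.78, 2.04 and 1.99 in shRNA-Ddx5 cells, which overlapped. The knockdown difference was -0.52 in medium (standard error 0.14, adjusted p = 0.0083), with the mean at 56.9% of the control, and 0.14 with cytokines (95% interval -0.16 to 0.43, adjusted p = 0.44). The 2 differed by 0.66 (95% interval 0.24 to 1.08, adjusted p = 0.059), and this passed without replicate 2 of shRNA-Ddx5 cells in medium (0.80, adjusted p = 0.020) or without replicate 2 of shRNA-NC cells with cytokines (0.73, adjusted p = 0.049). The cytokine differences were -0.26 in shRNA-NC (adjusted p = 0.16) and 0.40 in shRNA-Ddx5 cells (adjusted p = 0.0501). The latter passed after quantile normalization (adjusted p = 0.036), with voom weights (0.67, adjusted p = 0.044) and without replicate 2 of shRNA-Ddx5 cells in medium (0.53, adjusted p = 0.012) or replicate 1 of shRNA-NC cells with cytokines (0.40, adjusted p = 0.032).

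*Irak3*, the inhibitory member, was close to the limit of counting. *Irak3* (gene 73914, minus strand of chromosome 10, 119977553 to 120038035) had 4, 8 and 4 fragments in shRNA-NC and 1, 0 and 0 in shRNA-Ddx5 cells in medium. With cytokines it had 11, 2 and 1 in shRNA-NC and 1, 2 and 1 in shRNA-Ddx5 cells. The depth-scaled ratio in medium was 0.067 (counting interval 0.0016 to 0.43), and with cytokines 0.32 (0.077 to 1.02). The 11 fragments of replicate 1 stood apart from the other two libraries of that group. With no filter, limma on log2(FPKM + 1) gave adjusted p = 0.18 in medium and 0.40 with cytokines, whereas in medium the libraries of the 2 lines did not overlap and the counting interval lay below 1.

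**Figure D3:**
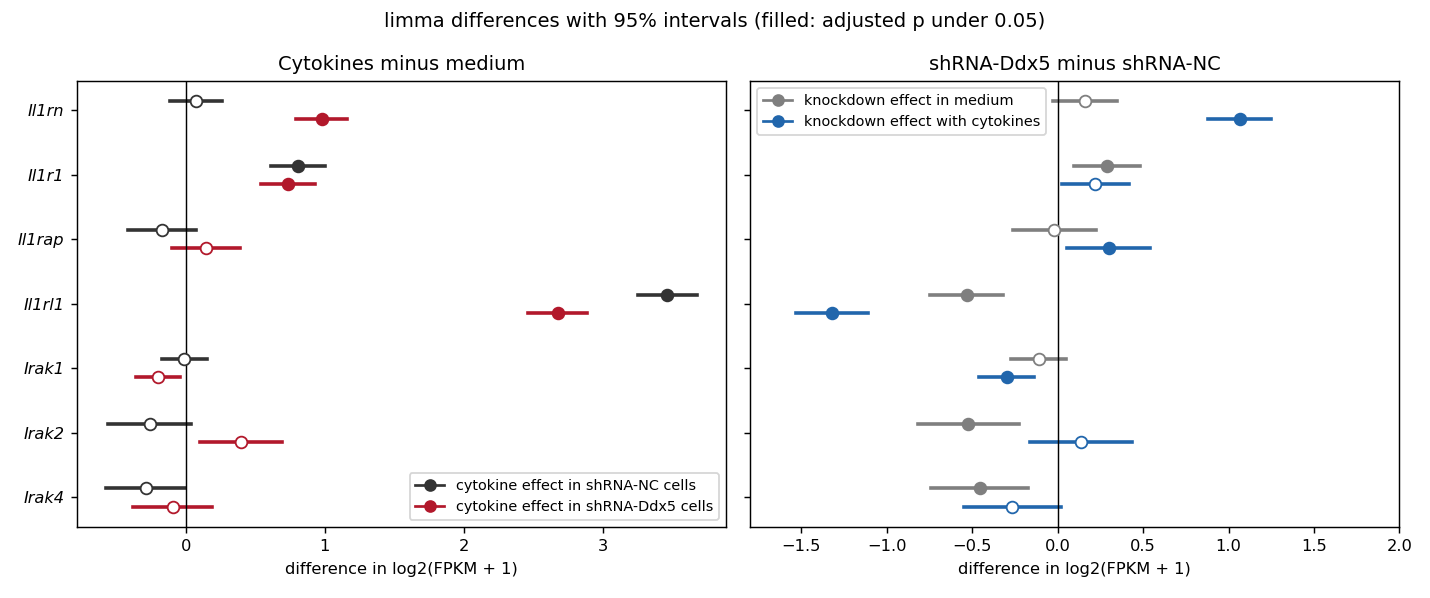
Differences in log2(FPKM + 1) (horizontal axes) of the 7 genes tested, cytokines minus medium at left and shRNA-Ddx5 minus shRNA-NC at right; points are limma estimates from 12 libraries, bars 95% intervals, and filled points have an adjusted p under 0.05. *Il1rl1* has the largest rise (3.46 and 2.68) and the largest fall (-1.32), and the called differences of *Il1rn* (0.98 and 1.06) are those that involve shRNA-Ddx5 cells with cytokines.

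The order of the 10 genes by mean FPKM, a scale that allows for gene length, changed between the groups. *Irak1* led in shRNA-NC cells in medium at 23.1 FPKM, and *Il1rl1* (2.92) and *Irak4* (2.69) followed with overlapping libraries, as did *Irak2* (2.21) and *Il1r1* (2.18) after them. With cytokines *Il1rl1* led at 42.3 FPKM, above *Irak1* at 22.9 without overlap, and *Il1r1* came next at 4.54. In shRNA-Ddx5 cells *Irak1* stayed first with cytokines at 18.4 FPKM, above *Il1rl1* at 16.3, again without overlap. In those cells *Il1rn* (1.24), *Il1a* (1.13) and *Il1rap* (1.09) then stood side by side with overlapping libraries, whereas in shRNA-NC cells with cytokines *Il1a* and *Il1rn* lay at 0.122 and 0.0720 FPKM and *Il1rap* at 0.701. The antagonist and the agonist gene thus reached like levels per length of gene in the same cells.

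Genes with the most similar profiles were found by Pearson's r of log2(FPKM + 1) over the 12 libraries, which reflects the 4 groups that all genes share. For *Il1rl1* they were *Trib1* (0.993), *Maff* (0.992) and *Btg2* (0.992), and for *Il1rn* *Dhrs9* (0.990), *Ch25h* (0.989) and *Tgfbr3* (0.987). For *Il1r1* they were *Psme2* (0.988), *Dpy19l1* (0.985) and *Sema3c* (0.982). *Irak2*, with lower values throughout, had *Snora69* (0.887), *Peli3* (0.872) and *Psd3* (0.860). The first genes were *Brip1* (0.862) for *Il1rap*, *Pex2* (0.930) for *Irak1* and *Pask* (0.924) for *Irak4*. Among the 7 genes themselves *Il1r1* and *Il1rl1* had an r of 0.80, *Il1rn* and *Irak1* one of -0.88, and *Il1rl1* and *Irak1* one of -0.11.

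Downstream of the receptors, 27 genes known to answer IL-1 were all tested. With cytokines 25 rose in shRNA-NC cells and 27 in shRNA-Ddx5 cells, beside 18.6% and 13.5% of all genes. The median differences were 3.37 and 3.57, beside 0.02 and 0.00 over all genes. *Saa3*, *Nos2*, *Lcn2*, *Mmp3* and others of the list were under 1 FPKM in every library in medium. They entered the test only through libraries with cytokines, so their rises were favoured in advance. The sizes of their rises on the log2(FPKM + 1) scale depend on the added 1, and with voom weights the difference of *Nos2* between the lines turned sign. The largest rises in shRNA-NC cells were those of the chemokine genes *Cxcl1* (8.57), *Ccl2* (8.51) and *Cxcl5* (7.22) and of *Saa3* (6.56), and in shRNA-Ddx5 cells those of *Saa3* (10.66), the nitric oxide synthase gene *Nos2* (8.45), *Ccl2* (7.98) and the lipocalin gene *Lcn2* (6.60). The knockdown in medium raised 10 of the 27 and lowered none (median 0.25), beside 25.3% of all genes raised, with *Cxcl5* (2.90), *Cxcl1* (2.39) and the aggrecanase gene *Adamts5* (2.02) ahead. With cytokines it raised 18 and lowered 2 (median 1.07), beside 23.5% and 22.1% of all genes, with *Saa3* (4.37), *Lcn2* (3.61), *Nos2* (2.73) and the stromelysin gene *Mmp3* (2.29) ahead. The list was chosen with earlier results of these data known. It holds *Mmp13*, *Nos2*, *Adamts4* and *Adamts5*, which the paper reports as raised by the knockdown, so the knockdown counts are no independent result. Both stimuli were IL-1β and TNF-α together, so the part of either cytokine in the rises with cytokines cannot be told apart.

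Of 19 genes of the chain between receptor and NF-κB, all were tested, and their changes went both ways. The cytokines raised 6 and lowered 3 in shRNA-NC cells (median 0.25) and raised 6 and lowered 1 in shRNA-Ddx5 cells (median 0.10). Of all genes they raised 18.6% and lowered 15.2% in shRNA-NC cells, and raised 13.5% and lowered 13.5% in shRNA-Ddx5 cells. Without replicate 1 or 2 of shRNA-NC cells in medium, or replicate 1 of shRNA-NC cells with cytokines, 1 was lowered in shRNA-NC cells in place of 3. *Myd88*, the adaptor, rose with cytokines by 0.57 in shRNA-NC and 0.79 in shRNA-Ddx5 cells, and *Map3k8*, a kinase that feeds the MAP kinase arm, by 0.95 and 1.75. *Map3k8* was under 1 FPKM in every library in medium and entered the test only through those with cytokines, so its rise was favoured in advance. The knockdown raised 5 and lowered 6 in medium (median -0.13), and raised 6 and lowered 7 with cytokines (median 0.03), beside medians of 0.03 and 0.01 over all genes. Of all genes 25.3% were raised and 21.7% lowered in medium, and 23.5% and 22.1% with cytokines. Without replicate 2 of shRNA-Ddx5 cells with cytokines, 3 rather than 6 were raised there. The largest differences in medium were *Sqstm1* (-1.07), *Peli3* (-1.02), *Ube2n* (0.65) and *Ikbkb* (-0.59), and with cytokines *Sqstm1* (-1.55), *Peli2* (-1.01), *Map3k8* (0.91) and *Peli1* (-0.86). *Peli1*, *Peli2* and *Peli3* encode Pellino ubiquitin ligases that act on IRAK proteins, and *Sqstm1* encodes the scaffold p62.

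*Peli3* had the largest difference of the chain between the knockdown effects in the 2 media (1.496, adjusted p = 0.00088). Its FPKM in medium was 2.11, 2.09 and 1.55 in shRNA-NC and 0.444, 0.499 and 0.364 in shRNA-Ddx5 cells. With cytokines it was 0.758, 1.34 and 1.44 in shRNA-NC and 1.94, 2.33 and 1.76 in shRNA-Ddx5 cells. The lines did not overlap in either medium, and their order was opposite. This is the direction of the *Irak2* values, for which the same difference did not pass.

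Of 12 genes for the processing and release of IL-1, only *Casp4*, *Casp8*, *Capn1* and *Capn2* reached the test. *Nlrp3*, picked out after its values were seen, missed the filter with 0.811 to 1.39 FPKM in shRNA-Ddx5 cells with cytokines. It had 53 to 92 fragments there and 8 to 27 in shRNA-NC cells (depth-scaled ratio 5.30, counting interval 3.87 to 7.39), and at most 4 in medium. The other genes left out had at most 11 fragments in any library. *Casp4*, which encodes caspase-11, had at most 2 fragments in any library in medium and 24 to 46 in shRNA-NC and 43 to 66 in shRNA-Ddx5 cells with cytokines, a rise of 1.12 (adjusted p = 0.00013) and 1.70 (adjusted p = 3.7e-06), having entered the test through those groups. *Capn1*, a calpain gene of the family that cuts pro-IL-1α, was higher in the knockdown cells in medium (0.63, adjusted p = 0.00086) and with cytokines (0.49, adjusted p = 0.0041). *Capn2* was lower by -0.31 (adjusted p = 0.013) and -0.78 (adjusted p = 4.0e-05). The list had 1 gene up and 1 down in each cytokine comparison and in the knockdown in medium, and 2 up and 1 down in the knockdown with cytokines. The list's medians in these 4 comparisons were -0.02, -0.24, 0.00 and 0.10.

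**Figure D4:**
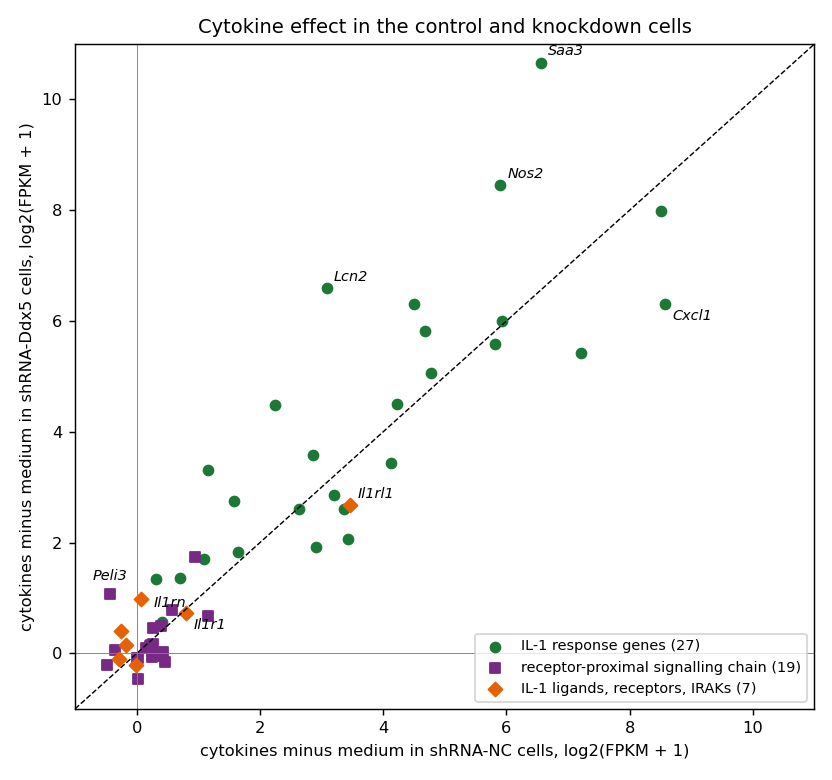
Cytokine effect in shRNA-NC cells (horizontal axis) against that in shRNA-Ddx5 cells (vertical axis), both as differences in log2(FPKM + 1), for 27 IL-1 response genes, 19 genes of the signalling chain and the 7 IL-1 genes tested; the dashed line marks equal effects. *Saa3*, *Nos2* and *Lcn2* lie above the line, and *Cxcl1* (8.57 against 6.30) and *Il1rl1* (3.46 against 2.68) below it. *Saa3*, *Nos2* and *Lcn2* were under 1 FPKM in every library in medium, so their places depend on the added 1. *Nos2* had a mean of 0.0052 FPKM in shRNA-NC and 0.14 in shRNA-Ddx5 cells in medium. With voom weights its difference between the lines turned sign, and none of these genes differed past the threshold.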

How the data were processed

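The authors mapped the reads, summed fragments per gene with featureCounts and converted them to FPKM, which they deposited with gene numbers, lengths and coordinates, for the 12 libraries in a single table. The submitters' processing notes name HISAT2 2.0.5, featureCounts 1.5.0-p3 and DESeq2 1.20.0 with mm10, while the gene coordinates are those of GRCm39. The paper's methods name another featureCounts release. Strandedness is not given in the sources used here, so reads of antisense neighbours cannot be told apart. Each library's FPKM times gene length was a whole multiple of one step (100% of values above 0, within 0.01 of a whole number), which gave fragments per gene and the totals of 14119199 to 19276520. Intervals on ratios of fragments are exact 95% binomial intervals, and they and the floor of 3 fragments cover counting error only.

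FPKM were tested as log2(FPKM + 1) by limma 3.58.1 in R 4.3.3 (4 group means, 12 libraries, eBayes with trend) for genes with at least 1 FPKM in at least 3 libraries, with Benjamini-Hochberg adjustment at 0.05. Alternatives were a pseudocount of 0.1, no filter, quantile normalization, scaling to the sum of fragments, voom weights on fragments, a replicate block, only the libraries of a contrast, each library left out in turn, and, added after the data were seen, voom on genes with at least 10 fragments in at least 3 libraries. The script was tested on simulated data. The 10 genes and the lists were chosen with earlier results of these data known. Named genes were the 10, *Ddx5*, up to 4 genes per list with the largest called difference, and the 3 genes most correlated with each tested one. Other genes named are said to have been picked after their values were seen, are markers, or are neighbours.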

Additional observations from a re-analysis of the deposited data

Results flagged for a closer look

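For these genes limma found that the knockdown effect differed between the media, as the effect with cytokines minus that in medium on the log2(FPKM + 1) scale. Among the 10 IL-1 genes they were *Il1rn* (0.90, adjusted p = 0.0010) and *Il1rl1* (-0.79, adjusted p = 0.0053). *Il1rn*, and *Il1f6* below, entered the test only through the shRNA-Ddx5 libraries with cytokines in which they are high, so a difference of that group was bound to be found. Among relatives they were *Il1f6* (1.16, adjusted p = 0.0078) and *Il18rap* (-0.96, adjusted p = 0.013). In the release and signalling lists they were *Capn2* (-0.47, adjusted p = 0.041), *Peli3* (1.496, adjusted p = 0.00088) and *Map3k8* (0.80, adjusted p = 0.031). The response genes with the largest such differences were *Saa3* (4.11, adjusted p = 0.0061), *Lcn2* (3.52, adjusted p = 0.0039), *Nos2* (2.55, adjusted p = 0.00085) and *Cxcl1* (-2.27, adjusted p = 0.00085). With voom weights on genes with at least 10 fragments, the differences of *Il18rap*, *Capn2*, *Peli3* and *Cxcl1* passed (adjusted p from 0.00024 to 0.048), and those of *Il1rn*, *Il1rl1*, *Il1f6*, *Map3k8*, *Saa3*, *Lcn2* and *Nos2* did not (0.056 to 0.76). For *Nos2* the sign of the difference turned (-1.19, adjusted p = 0.71). Of the 12 fits without 1 library, *Capn2* lost its call in 9, and the signalling list kept 1 of its 2 calls in 7.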

How the results depend on the processing

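Of 678 values of the 7 IL-1 genes under 20 other settings, 634 kept their side of the threshold, 26 lost a call and 18 gained one. Direction was compared only where either fit made a call, and 0 of those reversed. Small differences that were not called could change sign. An example is *Irak1* for the cytokines in shRNA-NC cells, at -0.06 to 0.03 without 1 library. The number of IL-1 genes changed by the cytokines in shRNA-Ddx5 cells was 3, and 5 after quantile normalization and 5 with voom on genes with at least 10 fragments. The number whose knockdown effect differed between media was 2, and 0 with a pseudocount of 0.1 and with either voom fit. Without 1 library the numbers were 2 to 2 and 2 to 4 for the cytokines in shRNA-NC and shRNA-Ddx5 cells, 3 to 4 and 2 to 5 for the knockdown in medium and with cytokines, and 1 to 3 for the difference between media. The lowest of the last 2 came without any shRNA-Ddx5 library with cytokines, when *Il1rn* left the test. Over all genes, the cytokine calls in shRNA-Ddx5 cells were 3344, and 2219 without replicate 3 in medium. The 1016 calls of a difference between media were 620 without replicate 2 of shRNA-NC cells in medium, 546 without replicate 3 of shRNA-Ddx5 cells in medium, and 551, 569 and 493 without replicates 1, 2 and 3 of shRNA-Ddx5 cells with cytokines. The causes were not tested. Libraries with the same replicate number deviated together in 4 of 18 pairs (r over 0.1; range -0.39 to 0.45), so the number was not used as a pairing. With it as a replicate block, *Irak2* in the cytokine comparison of shRNA-Ddx5 cells passed (adjusted p = 0.046), *Il1rap* in the knockdown with cytokines did not (0.073), and no other call of the 7 genes changed. *Il1b*, with 1 fragment in all, could not be compared at this depth, and *Irak3*, with at most 11 fragments in a library, was tested only with no filter.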
